A study of Mus musculus with 2 samples.

Results

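MHC class I molecules present peptides on nearly every nucleated cell, and the 10 genes described here encode the antigen-presenting molecule and the machinery that loads it. H2-K1 and H2-D1 encode the classical heavy chains, H2-T23 and H2-Q7 encode the nonclassical heavy chains Qa-1 and Qa-2, and B2m encodes the shared light chain. Tap1 and Tap2 form the transporter that carries peptides into the endoplasmic reticulum, Tapbp encodes tapasin, which couples the transporter to empty class I molecules, and Psmb8 and Psmb9 encode catalytic subunits of the interferon-inducible immunoproteasome. The genes were chosen by symbol alone, and 10 of 10 were found among the 32285 genes of both expression matrices.

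The matrices came from MC38 tumors, a colon carcinoma line of C57BL/6 origin injected under the skin, grown in wild-type (Lmo7+/+) and constitutive Lmo7 knockout (Lmo7-/-) female C57BL/6 mice of 6 to 8 weeks. The MC38 cells themselves were not knocked out, so in the tumor cells only the host genotype differed. Live cells were sorted after enzymatic dissociation and profiled by single-cell RNA sequencing, with 1 library per genotype and the 2 libraries pooled for sequencing. The sources name the Chromium droplet system, but the barcodes in the files have 24 bases in 3 blocks of 8, with 96, 97 and 103 variants per block, which is not the layout of that system, so the capture platform is uncertain. The number of mice behind each library was not given in the sources used here, so values of the 2 libraries are set side by side with counting intervals and without a test between genotypes.

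Class I genes are a standard target of interferon gamma, which induces the transcription factor Irf1, and Nlrc5 is the transactivator that binds class I promoters. Presented peptides are read by the T-cell receptor with CD8 as co-receptor, while Qa-1 is the ligand of the inhibitory receptor NKG2A/CD94, encoded by Klrc1 and Klrd1. In tumors the pathway sets whether CD8+ T cells can recognize the malignant cells, and macrophages and dendritic cells use it to present captured antigen.

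Of the members, 9 lie on chromosome 17 and B2m lies on chromosome 2 (GRCm38). H2-K1 spans chr17:33996017-34000347, Tapbp chr17:33915899-33929292, H2-D1 chr17:35262730-35267499, H2-Q7 chr17:35439155-35443773 and H2-T23 chr17:36029773-36032855. Psmb9 (chr17:34181987-34187764, minus strand) and Tap1 (chr17:34187553-34197225, plus strand) overlap at their starts in opposite directions, where reads can be assigned only by strand (the strand setting of the counting was not given in the sources used here), and Psmb8 (chr17:34197721-34201454) and Tap2 (chr17:34203527-34216321) follow on the plus strand. B2m spans chr2:122147686-122153083.

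RefSeq promoter windows of 300 bases (250 before and 50 after the start, GRCm38.p6) were on hand for 9 of the 10 members. The 5 printed include the classical heavy chains, both windows with a match to the interferon-response-like pattern defined below and the start shared by Tap1 and Psmb9. Capitals mark an interferon-response-like motif (ISRE-like, GAAA and a second GAAA separated by any 2 bases) and the core TGACG of a cyclic-AMP response element, on either strand.
H2-K1, chr17:34000298-34000597, minus strand: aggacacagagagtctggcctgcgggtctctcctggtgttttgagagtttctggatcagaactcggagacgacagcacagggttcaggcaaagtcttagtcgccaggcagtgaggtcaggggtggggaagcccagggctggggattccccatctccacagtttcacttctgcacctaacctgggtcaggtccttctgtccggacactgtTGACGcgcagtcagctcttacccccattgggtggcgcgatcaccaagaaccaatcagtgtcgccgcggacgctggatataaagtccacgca
H2-D1, chr17:35262844-35263143, plus strand: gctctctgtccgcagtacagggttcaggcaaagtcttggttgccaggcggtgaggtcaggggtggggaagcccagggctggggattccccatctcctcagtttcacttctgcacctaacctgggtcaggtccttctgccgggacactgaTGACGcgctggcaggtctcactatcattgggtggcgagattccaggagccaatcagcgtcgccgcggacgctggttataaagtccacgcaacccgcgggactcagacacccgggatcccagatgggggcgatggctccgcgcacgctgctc
B2m, chr2:122147437-122147736, plus strand: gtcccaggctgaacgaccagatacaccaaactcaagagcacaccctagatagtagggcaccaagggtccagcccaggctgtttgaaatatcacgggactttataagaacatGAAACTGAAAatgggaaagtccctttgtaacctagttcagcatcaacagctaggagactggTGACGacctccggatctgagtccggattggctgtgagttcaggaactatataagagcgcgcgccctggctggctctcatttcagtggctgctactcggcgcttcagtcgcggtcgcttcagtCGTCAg
H2-T23, chr17:36032652-36032951, minus strand: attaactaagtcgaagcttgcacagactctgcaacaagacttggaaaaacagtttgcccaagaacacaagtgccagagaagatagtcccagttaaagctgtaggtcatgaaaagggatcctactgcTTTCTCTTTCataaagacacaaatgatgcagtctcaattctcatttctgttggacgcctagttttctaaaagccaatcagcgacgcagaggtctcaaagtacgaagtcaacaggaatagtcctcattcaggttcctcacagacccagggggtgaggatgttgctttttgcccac
Tap1, chr17:34187306-34187605, plus strand: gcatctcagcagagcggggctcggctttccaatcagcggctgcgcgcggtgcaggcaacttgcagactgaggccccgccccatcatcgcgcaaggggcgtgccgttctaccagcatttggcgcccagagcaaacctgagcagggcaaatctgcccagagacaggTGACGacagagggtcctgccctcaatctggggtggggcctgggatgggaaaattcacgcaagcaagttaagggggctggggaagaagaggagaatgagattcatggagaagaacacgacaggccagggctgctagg
TGACG was present in 6 of the 9 windows (H2-K1, H2-D1, B2m, H2-Q7, Tap1 and Psmb9), against 20.8% of all 32851 windows. The ISRE-like motif was present in the windows of B2m and H2-T23, against 3.44% of all windows. Only exact matches to this pattern were counted, so the absence of a match does not show that a window lacks an interferon-response element. The GAS motif TTCNNNGAA was found only in the Psmb8 window of these 9, against 8.30% of all windows, and an NF-kB-like motif (GGG and CC separated by any 5 bases) was found in 6 of the 9, against 50.8%. The H2-K1 and H2-D1 windows matched at 176 of 240 bases when shifted by 60, and 275 bases of the Tap1 window are also the Psmb9 window read on the other strand. The TGACG and NF-kB-like matches of Tap1 and Psmb9 lie in that shared stretch and are the same sites, counted under both genes. These matches describe the letters of the windows and were not tested for activity.

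The Lmo7+/+ matrix held 16208 barcodes with 98582479 unique molecular identifiers (UMIs, each counting 1 captured RNA molecule) and the Lmo7-/- matrix 15163 barcodes with 80648345 UMIs, where the protocol names about 10000 sorted cells. After filtering, 13542 and 11860 cells remained with median depths of 4535.5 and 4304.5 UMIs. Between the matrices, 279 barcodes were shared. Lmo7 itself did not separate the labels: it was measured at 36.4 CPM (counts per 1000000 UMIs) in endothelial-like cells of the Lmo7+/+ library and at 29.1 CPM in those of the library labelled Lmo7-/-, from 18 and 12 UMIs, and the other host classes held 10 or fewer UMIs in each library.

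Cells were clustered without the 10 members and without the other listed class I pathway genes, so that these genes did not shape the classes. Marker genes named 8 classes with at least 20 cells in both libraries. Tumor-like cells numbered 6682 in the Lmo7+/+ library and 4706 in the library labelled Lmo7-/-, macrophage-like cells 2968 and 3614, monocyte-like cells 595 and 458, dendritic-like cells 311 and 200, T-like cells 444 and 619, NK-like cells 76 and 53, fibroblast-like cells 126 and 96, and endothelial-like cells 99 and 73. The dendritic-like class changed in size with the processing, to 80 to 94 and 63 to 72 cells under 5 of 7 settings that rebuilt the classes. Tumor-like clusters held Ptprc and Xist, a transcript of the female host cells, at under 20 CPM, but 10 of their 22 listed markers, Epcam and Krt8 among them, were under 5 CPM. A further 2193 and 2002 cells stayed unnamed, among them clusters that carried Ptprc beside part of the tumor chromosome pattern.

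The classical heavy chains were at high levels in every class and varied little between them. H2-K1 was measured at 3473 and 3683 CPM in NK-like cells (Lmo7+/+ first, then the library labelled Lmo7-/-), at 3232 and 3267 in T-like cells, at 2848 and 3492 in endothelial-like cells and at 2417 and 3404 in macrophage-like cells. Tumor-like cells held 2537 and 2862 CPM, dendritic-like cells 2445 and 2725, monocyte-like cells 2231 and 2340 and fibroblast-like cells 1852 and 2460. Apart from the steps from NK-like to T-like and from dendritic-like to monocyte-like cells, the ranges of neighbouring classes in this order overlapped. The mean of the libraries differed 1.66-fold between the highest and the lowest class for H2-K1 and 1.55-fold for H2-D1.

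H2-D1 was highest in endothelial-like cells, at 5115 and 6722 CPM, and lowest in fibroblast-like cells, at 3706 and 3910 CPM. Tumor-like cells, at 4258 and 4474 CPM, stood within the range of the macrophage-like cells, at 3923 and 5181 CPM. The light chain B2m was lowest in tumor-like cells, at 3055 and 3421 CPM, and did not overlap there with the next class, the dendritic-like cells, at 3542 and 4081 CPM. Macrophage-like cells held 5065 and 6403 CPM of B2m and endothelial-like cells 5103 and 6717 CPM.

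**Figure D1:**
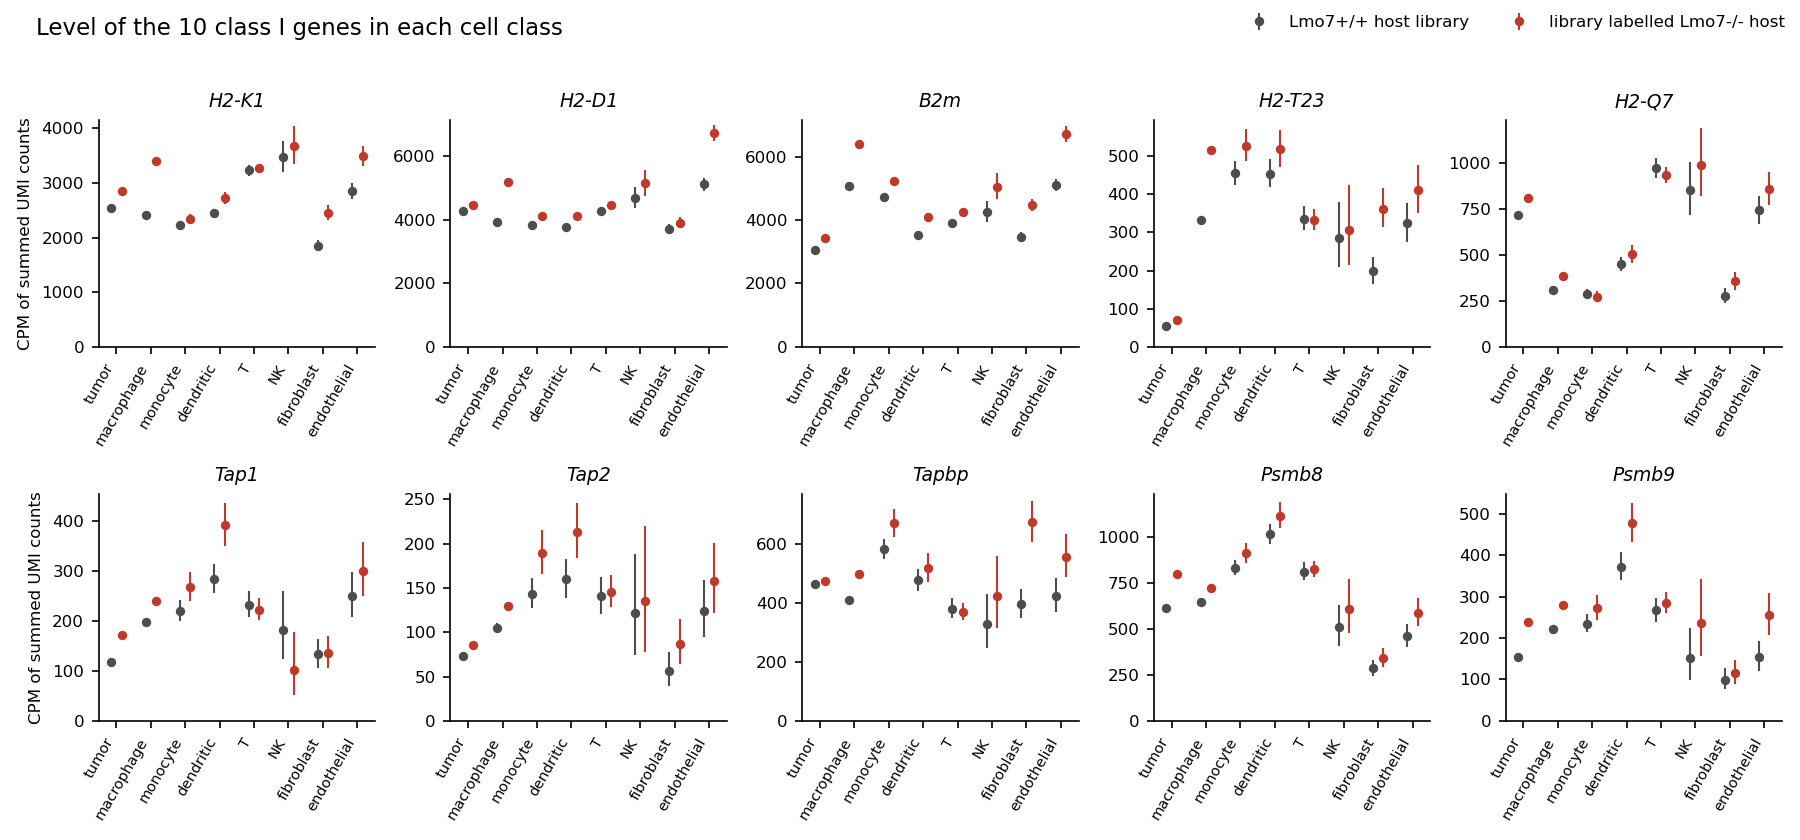
Level of each of the 10 class I genes in 8 cell classes, as CPM of the summed UMI counts of a class (vertical axis from 0; classes on the horizontal axis), with grey points for the Lmo7+/+ library, red points for the library labelled Lmo7-/- and bars for the 95% counting interval. H2-T23 sits at 55.9 and 70.7 CPM in tumor-like cells and 198 CPM or more in every other class, while Tap1, Psmb8 and Psmb9 are highest in dendritic-like cells.

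Of the nonclassical heavy chains, H2-T23 was lowest in tumor-like cells and did not overlap there with any other class, whereas H2-Q7 held a middle place. H2-T23, which encodes Qa-1, was at 55.9 and 70.7 CPM in tumor-like cells, against 333 and 516 CPM in macrophage-like cells, a difference of 5.97-fold in the Lmo7+/+ library and 7.29-fold in the other. The log2 ratio of tumor-like over macrophage-like cells was -2.58 (95% counting interval -2.64 to -2.51) and -2.87 (-2.93 to -2.81). Monocyte-like and dendritic-like cells held most H2-T23, at 454 and 527 CPM and at 454 and 517 CPM, and fibroblast-like cells, the next class above tumor-like cells, held 198 and 362 CPM.

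H2-Q7, which encodes Qa-2, was higher in tumor-like cells, at 718 and 812 CPM, than in macrophage-like cells, at 308 and 388 CPM, with log2 ratios of 1.22 (1.18 to 1.26) and 1.06 (1.03 to 1.10). T-like cells, at 974 and 935 CPM, and NK-like cells, at 852 and 993 CPM, were higher still, and endothelial-like cells, at 743 and 857 CPM, overlapped with the tumor-like range. H2-Q7 has close copies in the Q region, such as H2-Q6, and counting may have split reads among them, so its level is less certain than that of B2m or Tap1. H2-K1 and H2-D1 also share long stretches of coding sequence.

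With each cell thinned to 1500 UMIs to equalize depth, a UMI of H2-T23 was seen in 7.47% (exact binomial interval 6.80 to 8.19%) and 9.55% (8.65 to 10.5%) of tumor-like cells and in 38.9% (37.1 to 40.7%) and 52.1% (50.3 to 53.8%) of macrophage-like cells. Without thinning the shares were 28.3% and 33.1% in tumor-like cells (median depths 4900.0 and 5003 UMIs) and 73.4% and 80.02% in macrophage-like cells (5432 and 4539.5 UMIs). Free macrophage RNA was gauged from the complement genes C1qa, C1qb and C1qc, whose summed level in tumor-like cells was 0.978% and 0.760% of that in macrophage-like cells. Macrophage RNA at that share would make up 5.83% and 5.54% of the H2-T23 counts of tumor-like cells and a median of 1.22% and 0.894% over the 10 members.

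The transporter genes Tap1 and Tap2 were highest in dendritic-like cells, at 284 and 392.4 CPM for Tap1 and 160 and 213 CPM for Tap2. Both ranges overlapped with the next class. For Tap1 it was endothelial-like cells, at 251 and 301 CPM, and for Tap2 monocyte-like cells, at 144 and 190 CPM. Tap1, Tap2, Psmb8 and Psmb9 were also highest in dendritic-like cells in both libraries under each of the 7 settings that rebuilt the classes. This held on as few as 80 and 63 cells, with Tap1 from 278 to 365 CPM and from 385 to 511 CPM. Tumor-like cells held 118 and 171 CPM of Tap1 and 73.2 and 85.3 CPM of Tap2, and fibroblast-like cells 133 and 136 CPM and 55.8 and 87.0 CPM. The dendritic-like level exceeded that of macrophage-like cells by log2 ratios of 0.52 and 0.71 for Tap1 and of 0.61 and 0.72 for Tap2. Tapbp followed another order. Its mean over the libraries was highest in monocyte-like cells, at 582 and 670 CPM, and lowest in T-like cells, at 381 and 369 CPM. Both ends overlapped with the next class, fibroblast-like cells at 397 and 674 CPM and NK-like cells at 328 and 424 CPM.

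The immunoproteasome genes had the widest spread of levels among the members other than H2-T23. Psmb8 ran from 285 and 342 CPM in fibroblast-like cells to 1018 and 1117 CPM in dendritic-like cells, and Psmb9 from 99.2 and 116 CPM to 373 and 479 CPM. Across the 16 class sums the levels of these subunits followed each other (Pearson r of log2(CPM + 1) 0.93), whereas H2-Q7 and Tapbp ran in opposite orders (r = -0.52). These correlations describe sums from 2 libraries that share preparation and depth, and they were not tested.

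Counted over all members, 3 of 10 (B2m, H2-T23 and Tap2) were lower in tumor-like than in macrophage-like cells by a log2 ratio of at least 0.5 in both libraries, where 21.1% of all genes were, and 1 of 10 (H2-Q7) was higher, where 45.8% of all genes were. Without a tumor-like cluster of low mitochondrial share, described next, 2 were lower (21.2% of all genes were) and 1 was higher (45.2% were), since Tap2 then stood at -0.46 and -0.54. In fibroblast-like cells 6 of 10 were lower than in macrophage-like cells by that limit, where 29.6% of all genes were, with Psmb8 at -1.18 and -1.08 and Psmb9 at -1.17 and -1.27. In dendritic-like cells 4 of 10 (Tap1, Tap2, Psmb8 and Psmb9) were higher, where 10.6% of all genes were, and B2m was lower, where 19.2% were. H2-Q7 was the 1 member past the limit in T-like cells (1.66 and 1.27, where 25.3% of all genes were higher and 23.2% lower) and in endothelial-like cells (1.27 and 1.14, where 19.8% were higher and 19.9% lower).

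Within the tumor-like cells a cluster of 1881 cells differed from the rest in all 8 members whose products are made into the endoplasmic reticulum. The cluster was led by Ccnd1, Cryaa and Nfix, its median mitochondrial share was 0.245% of UMIs and its median depth 2040 UMIs, and it carried the same chromosome-wide expression profile as the other tumor-like cells (slope 1.01). H2-K1 was at 402 and 482 CPM there, against 2646 and 2993 CPM in the other tumor-like cells, a log2 ratio of -2.72 (-2.81 to -2.63) and -2.64 (-2.73 to -2.54). H2-D1 was at 787 and 881 CPM against 4436 and 4671 CPM, and B2m at 908 and 1028 CPM against 3164 and 3552 CPM.

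All 8 of these members were lower by at least 0.5 in both libraries, where 14.3% of all genes were, with medians of -2.34 and -2.30 beside 0.23 and 0.25 for all genes. The immunoproteasome subunits, which work in the cytosol, were not lower there. Psmb8 was at 758 and 945 CPM in the cluster against 606 and 790 CPM outside it, and Psmb9 at 189 and 340 CPM against 154 and 235 CPM. In cells thinned to 1500 UMIs, 13.7% (11.3 to 16.3%) and 12.7% (10.1 to 15.7%) of the cluster had no UMI of H2-K1, H2-D1 or B2m, against 3 of 4853 (0.0618%) and 0 of 3396 (which allows up to 0.109%) of the other tumor-like cells.

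Other genes whose products enter the endoplasmic reticulum were low in this cluster too. On a list of 15 such genes, among them the chaperones Hspa5 and Calr, 14 were lower by at least 0.5 in each library, with medians of -2.19 and -2.24, and the 13 mitochondrially encoded genes were lower by medians of -3.83 and -4.03. Malat1, Neat1 and Kcnq1ot1, RNAs kept in the nucleus, had medians of -0.89 and -0.46, and 3 of 3 were lower by at least 0.5 in Lmo7+/+ cells against 1 of 3 in those labelled Lmo7-/-. The 14 constitutive proteasome core genes had medians of 0.13 and 0.06, and none was lower by 0.5. These lists were written after the cluster had been seen, and the part of RNA quality or cell integrity in the difference was not tested.

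**Figure D2:**
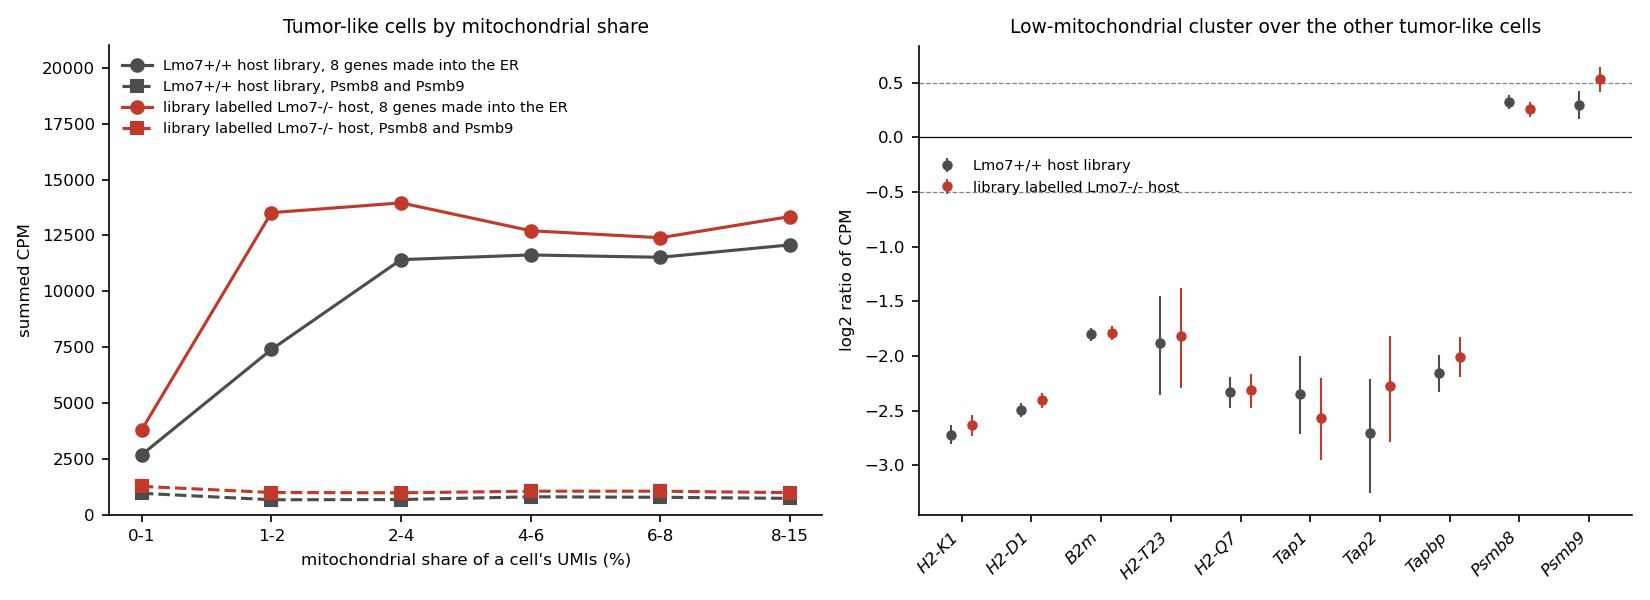
Left, summed CPM of the 8 members made into the endoplasmic reticulum (circles) and of Psmb8 and Psmb9 (squares) in tumor-like cells binned by mitochondrial share (percent of UMIs); right, log2 ratio of each member in the low-mitochondrial cluster over the other tumor-like cells with 95% counting intervals; grey is the Lmo7+/+ library and red the library labelled Lmo7-/-. The 8 genes sum to 2684 and 3802 CPM under 1% mitochondrial share and to 11416 CPM or more from 2% upward, while Psmb8 and Psmb9 stay between 667 and 1265 CPM.

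The same difference was seen when tumor-like cells were binned by mitochondrial share instead of by cluster. The cluster had been picked for the lowest mitochondrial share, so the bins are no separate support. The 8 members summed to 2684 CPM in the 935 cells under 1% in the Lmo7+/+ library and to 3802 CPM in the 852 such cells of the other library. Between 1 and 2% the sums were 7394 and 13517 CPM, and from 2 to 15% they ran from 11416 to 12075 CPM and from 12395 to 13955 CPM. Among macrophage-like cells too few had under 1% for a value. In macrophage-like and T-like cells the sums were higher in the lowest bin with a value than between 6 and 8%. Tumor-like cells of the library labelled Lmo7-/- also went from 13955 CPM between 2 and 4% to 12395 CPM between 6 and 8%. The 8 members summed to 15551 and 21243 CPM in the 32 and 47 macrophage-like cells between 1 and 2%, and to 11869 and 15093 CPM between 6 and 8%. Between 8 and 15% they summed to 12880 and 15614 CPM in macrophage-like cells. In T-like cells they summed to 19304 and 18476 CPM between 2 and 4% and to 12236 and 11263 CPM between 6 and 8%.

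The other tumor-like clusters differed in the same members by less. A cluster of 3983 cells led by Cdsn, Car9 and P4ha2, genes induced under low oxygen among them, held 2964 and 3603 CPM of H2-K1 and 5036 and 5767 CPM of H2-D1. A cluster of 5524 cells led by the mitotic genes Ccnb1, Cdc20 and Anln held 2365 and 2605 CPM of H2-K1 and 3904 and 3975 CPM of H2-D1. An unnamed set of 731 and 614 cells, led by Enpp2, Serpine2 and collagen genes with Ptprc and Xist under 20 CPM in 4 of its 5 clusters, held more Tap1 than the tumor-like cells, at 173 and 306 CPM.

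Between the libraries, the members were higher in the library labelled Lmo7-/- in nearly every class. The comparison addresses how the cells of the tumor differ when the host lacks Lmo7. Of the 80 pairs of member and class, 74 had a log2 ratio above 0, 8 were at or above 0.5, the size the study used for its gene lists, and 1 was at or below -0.5. Among the 75 pairs with at least 100 counts, 70 were above 0, 6 were at or above 0.5 and 0 at or below -0.5. Of all genes with at least 100 counts, 32.1% were above 0 in macrophage-like, 38.3% in tumor-like, 42.1% in T-like, 42.9% in NK-like, 43.6% in monocyte-like, 44.8% in dendritic-like, 45.5% in fibroblast-like and 49.0% in endothelial-like cells, and between 1.75 and 9.53% were at or above 0.5. Between 3.1 and 8.77% of these genes were at or below -0.5. Of all genes with at least 20 counts, between 4.21 and 14.6% were at or above 0.5 and between 6.45 and 19.3% at or below -0.5. Library and genotype cannot be told apart, and the intervals cover counting error only.

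Macrophage-like cells had all 10 members higher and a median log2 ratio of 0.33, beside -0.10 for all 10048 genes with at least 100 counts. H2-T23 was at 333 CPM (5895 UMIs) and 516 CPM (9494 UMIs), a log2 ratio of 0.63 (0.58 to 0.68), and was the 1 member past 0.5, where 2.89% of all genes were. H2-K1 followed at 0.49 (0.48 to 0.51), H2-D1 at 0.40 (0.39 to 0.42) and B2m at 0.34 (0.33 to 0.35). The loading genes stood at 0.28 for Tap1, 0.30 for Tap2 and 0.28 for Tapbp, and Psmb8 was the lowest at 0.16 (0.12 to 0.19).

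The macrophage-like cells were split again into 8 subclusters, which the libraries filled unequally, from 41.7 to 80.6% cells of the library labelled Lmo7-/-. The members' median was above 0 in each of them, from 0.15 in the subcluster led by Retnla and Folr2 to 0.40 in that led by Fcrls and Gas6. H2-K1 was lowest in the subcluster led by the cycling genes Pclaf and Ccna2, at 2080 and 2836 CPM, and highest in that led by Ccl5 and H2-M2, at 3042 and 3919 CPM. The subcluster led by Mmp12 and Hspa1b had the lowest Psmb8, at 362 and 460 CPM.

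In tumor-like cells all 10 members were higher in the library labelled Lmo7-/-, and the largest ratios were those of Psmb9 and Tap1. Psmb9 was at 155 and 240 CPM, a log2 ratio of 0.63 (0.59 to 0.67), and Tap1, which shares its promoter window, at 118 and 171 CPM, a ratio of 0.54 (0.49 to 0.59), and these 2 were past 0.5, where 1.75% of all genes were. Psmb8 stood at 0.38 (0.36 to 0.40) and H2-T23 at 0.34 (0.27 to 0.41). The classical heavy chains had small ratios, with H2-K1 at 0.17 (0.16 to 0.19) and H2-D1 at 0.07 (0.06 to 0.08), and Tapbp was at 0.03 (0.00 to 0.06), with -0.02 as its lowest value among the alternatives. The median was 0.20, beside -0.05 for all genes, and without the low-mitochondrial cluster it was also 0.20.

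In the low-mitochondrial cluster itself all 10 members were higher as well, with a median of 0.29. Psmb9 was past 0.5 at 0.85 (0.68 to 1.01), where 2.66% of all genes with at least 100 counts were (2.71% downward). Tap2, with 32 and 37 UMIs, was at 0.65 (-0.07 to 1.38), and of all genes with at least 20 counts 6.83% were past 0.5 (7.79% downward). The unnamed Enpp2 and Serpine2 set had 2 members past 0.5, where 4.93% of all genes were (8.07% downward), with Tap1 at 0.82 (0.71 to 0.93) and Psmb9 at 0.74 (0.64 to 0.85). The libraries filled its clusters unequally, from 10.2 to 70.5% cells of the library labelled Lmo7-/-, so these pooled ratios mix composition with level. The members' median ran from 0.19 to 0.50 over the clusters.

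Endothelial-like and fibroblast-like cells had medians of 0.35 and 0.36, on far fewer cells, and the fibroblast-like median turned to -0.021 without cells carrying UMIs of another lineage. Psmb9 in endothelial-like cells was at 154 CPM (76 UMIs) and 255 CPM (105 UMIs), a ratio of 0.73 (0.29 to 1.17), and was the 1 member past 0.5, where 6.79% of all genes were (7.68% downward). In fibroblast-like cells H2-T23 (0.87, 0.54 to 1.20) and Tapbp (0.76, 0.53 to 1.00) were past 0.5, where 9.53% of all genes with at least 100 counts were (8.77% downward). Tap2, with 36 and 48 UMIs, was at 0.64 (-0.01 to 1.30), and of all genes with at least 20 counts 13.4% were past 0.5 (19.3% downward). Macrophage RNA moved with the fibroblast-like values, with C1q genes at 3.85% of their macrophage-like level in the Lmo7+/+ library and 6.67% in the other, and its part in the difference was not tested. Macrophage RNA at those shares would make up a median of 5.67% and 9.52% of the members' counts. In the 35 and 22 fibroblast-like cells without UMIs of another lineage, H2-T23 was at -0.20 and Tap2 at -0.28.

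Dendritic-like cells had all 10 members higher with a median of 0.18, led by Tap1 at 0.46 (0.25 to 0.68) and Tap2 at 0.41 (0.12 to 0.71), and none past 0.5, where 3.26% of all genes were upward and 4.5% downward. Monocyte-like cells had a median of 0.17 and none past 0.5, where 3.24% were upward and 4.99% downward, with Tap2 at 0.40 (0.14 to 0.66) and H2-Q7 at -0.08 (-0.28 to 0.12). C1q genes stood at 30.6% and 25.7% of their macrophage-like level in monocyte-like cells. Macrophage RNA at those shares would make up a median of 28.3% and 25.8% of the members' counts. Whether the C1q RNA was free or the cells' own was not tested. T-like cells stood near 0, with a median of 0.02, 6 members higher and 4 lower, and none past 0.5, where 2.33% of all genes were upward and 4.46% downward. H2-K1 was at 3232 and 3267 CPM there, and B2m had the largest ratio at 0.13 (0.07 to 0.18). Whether the ratio differed between classes was not tested, since each class had 1 library per genotype.

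NK-like cells gave the least certain values. Their median was 0.19, and Tap1 was lower, with 30 UMIs against 12 and a ratio of -0.84 (-1.94 to 0.17), while Psmb9 was higher, with 25 UMIs against 28 and a ratio of 0.64 (-0.19 to 1.48). Both intervals include 0. Of all genes with at least 20 counts, 15.8% were past the limit downward and 14.6% upward, and of those with at least 100 counts, which neither gene reached, 4.95% and 4.48%.

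**Figure D3:**
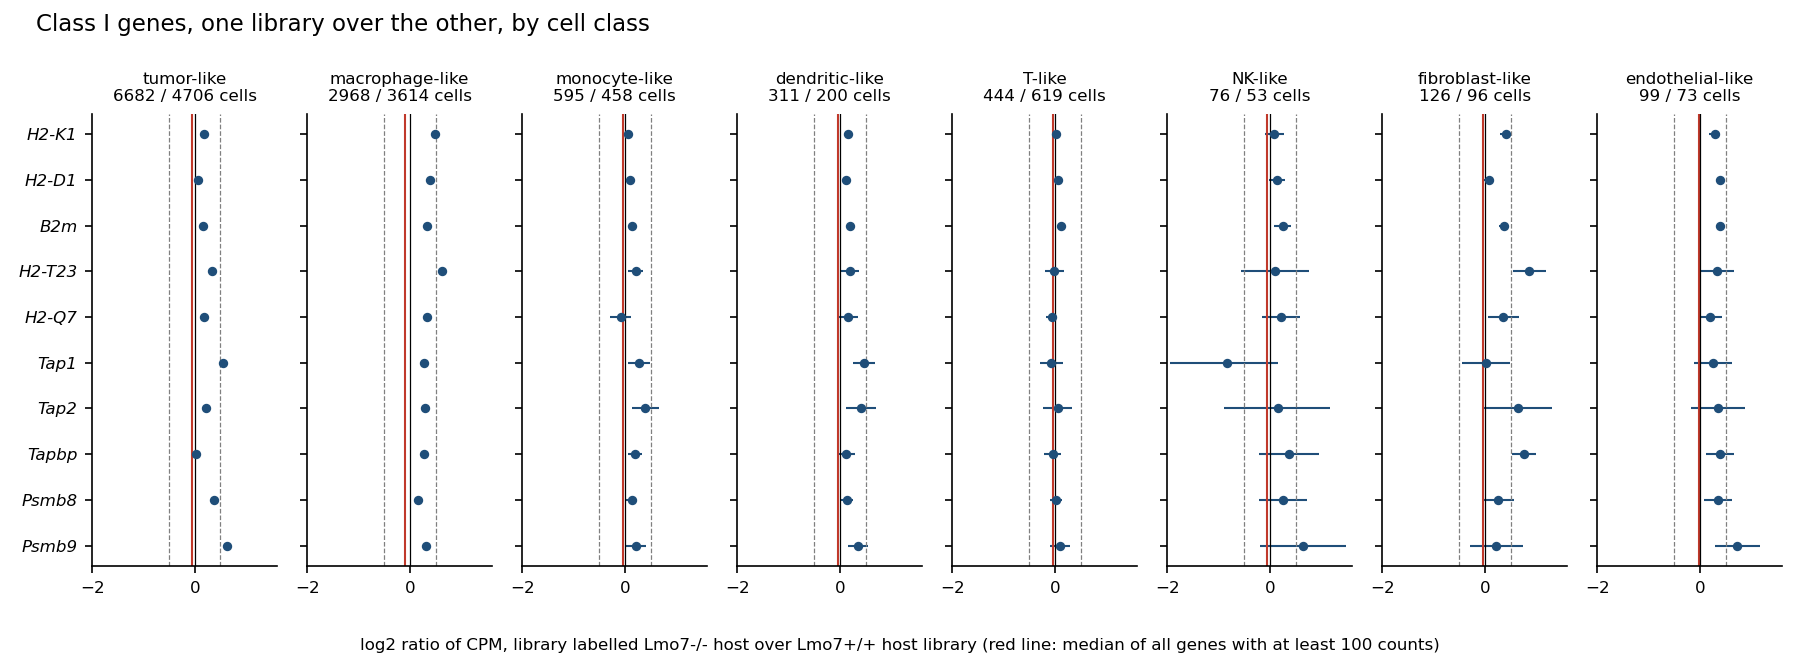
Log2 ratio of CPM, library labelled Lmo7-/- over Lmo7+/+ library, for each member (rows) in each cell class (panels, with cells per library), with 95% counting intervals, dashed lines at -0.5 and 0.5 and a red line at the median of all genes. Points lie to the right of the red line for all 10 members in macrophage-like and tumor-like cells and scatter around 0 in T-like cells.

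Among T-like cells 2 clusters, named because their member levels were extreme, differed in H2-K1 and H2-Q7. The cluster of 142 cells led by Icos, Il2ra and Tnfrsf4, with Ctla4 and Foxp3 among its leading genes, held 4948 and 5024 CPM of H2-K1 and 1383 and 1321 CPM of H2-Q7. The cluster of 245 cells led by Gzmb, Il2rb and Nkg7 held 2660 and 2449 CPM of H2-K1 and 887 and 763 CPM of H2-Q7. The cluster led by Icos had a median of 1625.5 UMIs and a mitochondrial share of 3.79%, that led by Gzmb 4114 UMIs and 5.54%. Over all T-like cells H2-K1 was at 5041 and 4404 CPM between 2 and 4% mitochondrial share and at 2902 and 2595 CPM between 6 and 8%. The part of depth and mitochondrial share in the difference was not tested. Cd8a, the co-receptor that binds class I, was at 884 and 1037 CPM over all T-like cells, a ratio of 0.23 (0.12 to 0.34). Klrc1, the NKG2A chain of the Qa-1 receptor, was at 319 and 470 CPM, a ratio of 0.56 (0.39 to 0.74). The libraries filled the T-like clusters unequally, from 49.2 to 61.0% cells of the library labelled Lmo7-/-. The highest share was in a cluster with Cd8a among its leading genes, so these pooled ratios mix composition with level.

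The exchange of immunoproteasome for constitutive subunits was read from the ratio of UMI counts within a pair, compared between classes and libraries and not as a ratio of protein. Psmb8 over Psmb5 was 3.96 and 5.70 in tumor-like cells, 6.12 and 7.99 in macrophage-like cells and 9.60 and 9.59 in dendritic-like cells. Psmb9 over Psmb6 was 0.651 and 0.981 in tumor-like cells, 1.15 and 1.44 in macrophage-like cells and 2.25 and 2.80 in dendritic-like cells. Psmb10 over Psmb7 was 1.03 and 1.33 in tumor-like cells and 1.75 and 2.15 in macrophage-like cells. In tumor-like and macrophage-like cells the intervals of the libraries were apart for all 3 pairs, and the constitutive subunits Psmb6 and Psmb7 themselves differed by at most 0.10 on the log2 scale there, while Psmb5 was at -0.15 and -0.23.

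**Figure D4:**
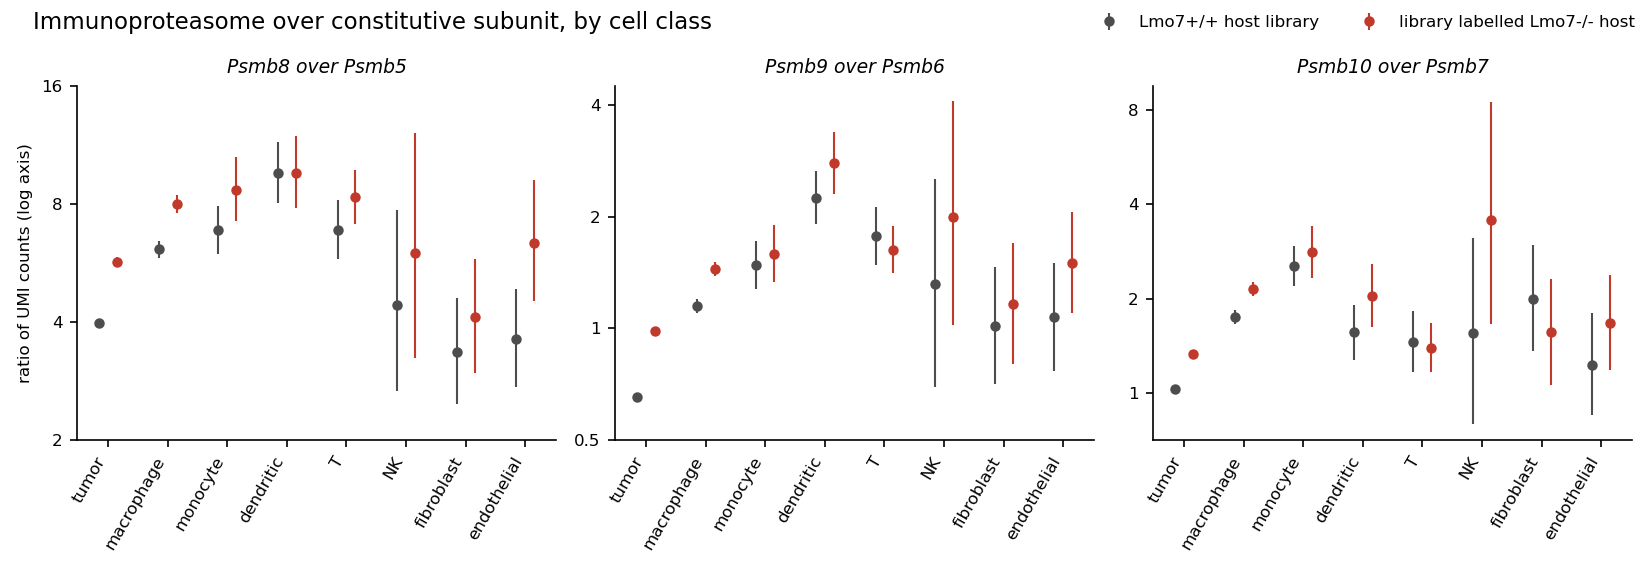
Ratio of UMI counts of each immunoproteasome subunit over the constitutive subunit it replaces (log vertical axis) in 8 cell classes, grey for the Lmo7+/+ library and red for the library labelled Lmo7-/-, with 95% counting intervals. The red points lie above the grey ones in tumor-like and macrophage-like cells in all 3 panels.

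Of 44 other listed genes of the pathway, 43 were in the matrices. In macrophage-like cells 3 of 34 with at least 100 counts were past 0.5 upward, where 2.89% of all genes were, and 0 downward, where 5.45% were, among them Irf1 at 0.87 (0.80 to 0.93) and the heavy chain gene H2-M2 at 0.53 (0.45 to 0.60). In tumor-like cells 2 of 33 were past it upward, where 1.75% of all genes were, and 1 downward, where 3.1% were. Irf8 was among those upward at 0.72 (0.59 to 0.85), while Cd1d1, which encodes a lipid-presenting class I relative, was at -0.53 (-0.72 to -0.35). Irf1 was at 0.38 (0.35 to 0.41) in tumor-like cells, and Nlrc5 at 0.33 (0.23 to 0.43) in tumor-like and 0.27 (0.15 to 0.39) in macrophage-like cells.

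In dendritic-like cells 4 of 27 were past it upward, where 3.26% of all genes were, namely Hfe, Tapbpl, Psme2 and Irf1, and 1 downward (Erap1), where 4.5% were. In endothelial-like cells 3 of 15 were past it upward, where 6.79% of all genes were, among them Psmb10 and Psme2, and in fibroblast-like cells 3 of 15, where 9.53% were, among them Psme2 and Irf1. In T-like cells 1 of 28 was past it upward (Klrc1), where 2.33% of all genes were, in monocyte-like cells 1 of 27 (Irf1), where 3.24% were, and in NK-like cells 1 of 8 downward (Calr), where 4.95% were. The heavy chain gene H2-Q6, a close copy of H2-Q7, was higher in tumor-like cells, at 460.2 and 486 CPM, than in macrophage-like cells, at 239 and 266 CPM, as H2-Q7 was.

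The general endoplasmic reticulum chaperones of the pathway had ratios below 0 in both large classes, as most genes did. In tumor-like cells the median of all genes was -0.05, with 38.3% of genes above 0. In macrophage-like cells that median was -0.10, with 32.1% above 0. Calr was at -0.09 in tumor-like and -0.12 in macrophage-like cells, Canx at -0.19 and -0.17 and Pdia3 at -0.13 and -0.08. The 7 loading and trimming genes had medians of -0.09 in tumor-like and -0.08 in macrophage-like cells. The peptide-trimming gene Erap1 was at -0.27 (-0.31 to -0.22) in tumor-like cells and at 0.09 (-0.04 to 0.22) in macrophage-like cells. The proteasome activator Psme2 was higher in both, at 0.25 and 0.22, and in T-like cells Irf1 was at -0.15 (-0.42 to 0.12).

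Over the 16 sums of class and library, the genes outside these lists whose levels followed the members' mean most closely were Anxa11 (Pearson r = 0.81), Ubald1 (0.80), Apaf1 (0.79), Entpd1 (0.79), Swap70 (0.78), Parp4 (0.78), Ptbp3 (0.78), Lrch1 (0.77), Arhgap27 (0.77) and 1810026B05Rik (0.77). They are the top 10 of 6693 genes ranked, and the sums share libraries and preparation.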

How the data were processed

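Matrices of raw UMI counts, deposited by the authors for 2 MC38 tumor libraries (1 per host genotype), were analysed; per the labels they were made with Cell Ranger 2.1.1 against mm10, while the matrix headers name software version 3.0.0, and reads were not reprocessed. The cell filter required 500 genes, 1000 UMIs and a mitochondrial share no higher than 15%. Counts were scaled to 10000 per cell and log-transformed, 2000 variable genes without the members and pathway genes gave 30 principal components, and a shared-neighbor graph (20 neighbors) was partitioned by the Louvain method at resolution 0.5 (igraph 0.11.9, scanpy 1.11.5, Python 3.11.15). Mixed clusters were split again. Clusters were named from listed markers, with at least 3 above 5 CPM, and tumor-like clusters had Ptprc and Xist under 20 CPM; these limits were chosen with the data in view. Doublets were kept. The members and lists were chosen with earlier results of these data known. Of the listed pathway genes, 1 is counted but its values are not reported here. Named genes were the members, the listed pathway genes, the 10 genes most like the members and leading genes of the clusters with extreme member levels.

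Counts were summed per class and library and expressed as CPM with exact Poisson intervals, and ratios with exact Clopper-Pearson intervals on the split of counts (95%). The intervals cover counting error only. All genes whose 2 libraries summed to 100 counts or more (200 over the 4 sums where classes were compared) gave the share of all genes past 0.5. No test was made, since each genotype had 1 library. Shares of cells were taken after thinning to 1500 UMIs. Scripts were tested on simulated data. Gene positions came from GENCODE M21, which matched 32235 of 32285 identifiers. Library sizes by TMM used edgeR 4.0.16. Alternatives covered the cell filter, doublets, resolution, components, variable genes, cells with UMIs of another lineage, library size and thinning; 4 more were added after the data were seen.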

Additional observations from a re-analysis of the deposited data

Results flagged for a closer look

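No member changed in opposite directions between classes with both counting intervals off 0. Of 48 member and pathway genes with enough counts, 4 pathway genes did, with a ratio of at least 0.5 in size in 1 of the classes. Ratios are log2, library labelled Lmo7-/- over Lmo7+/+ library. The differences between classes were not tested, and they were picked from 262 values.

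Cd1d1 was at -0.53 (-0.72 to -0.35) in tumor-like cells, from 743 and 353 UMIs, and at 0.42 (0.02 to 0.81) in macrophage-like cells, from 95 and 132 UMIs. Irf8, a transcription factor of the myeloid lineage, was at 0.72 (0.59 to 0.85) in tumor-like cells, from 849 and 962 UMIs, and at -0.39 (-0.68 to -0.11) in NK-like cells. Hfe, which encodes a class I relative that binds the transferrin receptor, was at 0.73 (0.28 to 1.19) in dendritic-like cells, from 80 and 87 UMIs, and at -0.22 (-0.41 to -0.02) in tumor-like cells. Calr, a chaperone of newly made class I molecules, was at 0.35 (0.21 to 0.50) in fibroblast-like cells and at -0.55 (-0.92 to -0.19) in NK-like cells, from 194 and 95 UMIs.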

How the results depend on the processing

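No paired analysis was possible because each genotype had 1 library. The members' median log2 ratio between libraries stayed above 0 under every alternative that gave a value in tumor-like (0.18 to 0.28), macrophage-like (0.31 to 0.45), monocyte-like, dendritic-like, NK-like and endothelial-like cells. In T-like cells it ran from -0.06 to 0.16. Leaving out cells with UMIs of another lineage gave 0.28 in tumor-like, 0.16 in T-like and -0.0215 in fibroblast-like cells. In the fibroblast-like class 35 and 22 cells were left, and H2-T23 turned to -0.20 and Tap2 to -0.28. Of the tumor-like cells, 1169 of 6682 and 1037 of 4706 were left. NK-like cells, with 0 and 1 left, and endothelial-like cells, with 3 and 2 left, gave no value. The genes used included Tyrobp and Fcer1g as myeloid and Tm4sf1 as tumor. Whether such RNA was the cells' own was not tested. TMM library sizes gave 0.45 in macrophage-like cells. Thinning to 1500 UMIs raised the pairs at or above 0.5 from 8 to 15, and Psmb9 in NK-like cells turned to -0.0601. Without thinning, 7 in place of 13 of 20 members in tumor-like and macrophage-like cells had a higher share of cells with a UMI in the library labelled Lmo7-/-, with intervals apart. The strict filter gave medians of -2.60 and -2.51 for the 8 members in the low-mitochondrial cluster. The cause of these changes was not tested. Of 1040 ratios of single members under the alternatives, 978 kept their sign. The ratio of Tap1 in tumor-like cells ran from 0.44 to 0.62 and that of H2-T23 in macrophage-like cells from 0.53 to 0.75. Resolution 0.2 left 16 and 12 monocyte-like cells and gave no value there. The dendritic-like class (311 and 200 cells) held 80 to 94 and 63 to 72 cells with the strict filter, doublets removed, resolution 0.2 or 1.0, or the members allowed among the variable genes. Scrublet marked 2.90% and 2.60% of cells as doublets.

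With 1 library per genotype, spread between animals was not measured, and genotype, dissection, dissociation and capture cannot be told apart. In NK-like cells 6 of 10 members had under 100 UMIs in each library, and their intervals include 0.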
